A study of Mus musculus with 19 samples.

Results

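The genes described here are named for the factors that start protein synthesis (initiation factors, eIF) and carry it forward (elongation factors, eEF). Such names also cover kinases and binding proteins that hold these factors back, and Eef1e1, a scaffold protein of the aminoacyl-tRNA synthetase complex. Counts of factors below include all of these genes. They were chosen by symbol, as every gene in the table whose name begins with Eif1 to Eif6 or with Eef1 or Eef2 and whose deposited value was at least 1 in at least 3 of the 19 libraries. Of 19486 genes in the table, 63 had such a symbol and 60 passed this filter. The 3 left out were Eef1a2, Eif4e1b and Eif3j1, whose highest values in any library were 0.26, 0.09 and 0.10. Of the 60 genes, 57 had a value of at least 1 in all 19 libraries, and the others were Eif1b (18 libraries), Eif4e3 (9 libraries) and Eif5a2 (3 libraries, all of them OFF libraries). Eif5a2 therefore entered only through the groups in which it was high, and its differences are a description only.

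RNA was sequenced from mouse liver tissue labelled hepatocellular carcinoma, in 5 groups named as in the labels: MYC_HCC and MYC_Twist1_HCC with 5 libraries each, and MYC_OFF, MYC_Recur and MYC_Twist1_OFF with 3 libraries each. The labels name MYC and Twist1 in the group names but give no genotype, strain, age, promoter or treatment of the mice, and they do not spell out OFF and Recur. They are also silent on whether each library is a mouse of its own, so the p-values speak only of the spread between these libraries, which may be technical. The 10 HCC libraries were taken over from an earlier deposit and re-analysed, while the other 9 were made for this series. In any comparison of an HCC group with a group that is not HCC, the group and the deposit cannot be told apart. MYC_Recur, MYC_OFF and MYC_Twist1_OFF belong to the newer deposit, and MYC_HCC and MYC_Twist1_HCC to the older.

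In initiation, eIF2 brings the initiator tRNA to the small ribosomal subunit, where eIF1, eIF1A, eIF3 and eIF5 help it find the start codon. The mRNA is delivered by eIF4F, which joins the cap-binding protein eIF4E, the scaffold eIF4G and the helicase eIF4A, and the 4E-binding proteins hold eIF4E back. In elongation, eEF1A delivers aminoacyl-tRNAs, the eEF1B subunits reload it with GTP, and eEF2 moves the ribosome along the mRNA. MYC is a transcription factor known for driving genes of ribosome production and protein synthesis, and Twist1 is a transcription factor known from epithelial-mesenchymal transition.

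MYC with its partner MAX is known to bind the letters CACGTG, so the promoters of the factors were searched for them. RefSeq promoter windows of the GRCm38.p6 build, from 250 bases before to 50 bases after a gene's start, were at hand for 47 of the 60 genes. CACGTG, which reads the same on both strands, was in a window of 12 of the 47 genes (25.5%). It was in a window of 11.7% of the 9749 tested genes with a window and of 8.09% of all 27025 genes with a window. Among the 22 factors with a window that were lower in both OFF groups than in the matching HCC groups, 4 (18.2%) held it, and among the other 25 factors 8 (32.0%) did. The 4 were Eif1b, Eif3k, Eif4a1 and Eif4e; the 8 were Eef2, Eef2k, Eif3a, Eif3f, Eif4g1, Eif4h, Eif5a and Eif5a2. The following stretches before the start, written 5′ to 3′ on the gene's strand with CACGTG in capitals, show the motif in 2 factors that were lower in both OFF groups (Eif4a1, Eif3k) and in 4 that were not called in at least 1 of the 2 comparisons. A match is a description of these letters and not a bound site.
Eif4a1, chr11:69672577-69672642, minus strand, outside annotated genes: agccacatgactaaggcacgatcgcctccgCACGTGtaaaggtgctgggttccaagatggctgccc
Eif3k, chr7:28981897-28981962, minus strand, outside annotated genes: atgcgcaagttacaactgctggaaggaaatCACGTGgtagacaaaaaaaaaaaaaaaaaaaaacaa
Eef2, chr10:81176558-81176623, plus strand, outside annotated genes: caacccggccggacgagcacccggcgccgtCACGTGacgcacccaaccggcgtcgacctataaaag
Eif4g1, chr16:20672643-20672708, plus strand, in an intron of a longer Eif4g1 transcript: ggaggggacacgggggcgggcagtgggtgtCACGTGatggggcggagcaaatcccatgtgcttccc
Eif5a, chr11:69921425-69921490, minus strand, in an intron of a longer Eif5a transcript: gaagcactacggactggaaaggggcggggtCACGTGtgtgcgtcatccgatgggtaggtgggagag
Eef2k, chr7:120842770-120842830, plus strand, outside annotated genes: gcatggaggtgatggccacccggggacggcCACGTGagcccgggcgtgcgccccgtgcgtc

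The values are the authors' normalized signal per gene, of a unit that is not given, and the depth of each library is unknown. Values of different genes are not known to be per length, so levels are compared between libraries and not between genes. Differences below are on the log2(value + 1) scale, with a standard error (SE), from a limma fit of all 19 libraries, and a negative difference means lower in the group named first. Gene coordinates are those of the GENCODE annotation of the mm10 build. A gene was called higher or lower at a Benjamini-Hochberg adjusted p under 0.05 over 13253 tested genes. Summed over all genes, a library held between 507868 and 690310 units, of which the 60 factors took 2.3% to 5.11%. Without Eef1a1, which alone made up 19.8% to 59.5% of the factors' sum, the share was 1.43% to 2.11%.

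Myc, the first gene in the group names, had values of 158, 180.5, 165, 129 and 166 in MYC_HCC, 116, 119.99, 134, 153 and 102 in MYC_Twist1_HCC and 159, 156 and 152 in MYC_Recur. It was 59.8, 33.9 and 43.4 in MYC_OFF and 32.5, 40.9 and 45.7 in MYC_Twist1_OFF. Every OFF library was below every library of the other 3 groups. The log2 difference was -1.81 ± 0.2 (SE, adjusted p = 7.25e-07) in MYC_OFF against MYC_HCC, -1.63 ± 0.2 (SE, adjusted p = 6.48e-06) in MYC_Twist1_OFF against MYC_Twist1_HCC and 1.78 ± 0.22 (SE, adjusted p = 5.59e-06) in MYC_Recur against MYC_OFF. Nothing at hand says whether this row counts reads of a transgene. Twist1 was at most 0.27 in any library and was not tested, so the Twist1 labels could not be checked by its level.

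More translation factor genes were called lower than higher in each OFF group, and more were called higher than lower in MYC_Recur against MYC_OFF. In MYC_OFF against MYC_HCC, limma called 38 of the 60 factors lower and 4 higher, where 39.4% of all tested genes were lower and 18.9% higher. In MYC_Twist1_OFF against MYC_Twist1_HCC, 35 were lower and 2 higher, against 33.5% and 13.1% of all tested genes. In MYC_Recur against MYC_OFF, 36 were higher and 5 lower, against 37.5% and 12.0% of all tested genes. Eif5a2, which passed the filter only through OFF libraries, is among the 4 called higher in MYC_OFF and the 5 called lower in MYC_Recur. The median log2 difference of the 60 factors was -0.91, -0.77 and 0.88 in these 3 comparisons, and that of all tested genes was -0.38, -0.32 and 0.45. In MYC_Recur against MYC_OFF, every library of one group lay above every library of the other for 40 factors with MYC_Recur higher (41.2% of all tested genes) and for 5 with it lower (12.2% of all tested genes). The groups likewise did not overlap for 29 factors lower in MYC_OFF than in MYC_HCC (34.4% of all tested genes) and for 37 lower in MYC_Twist1_OFF than in MYC_Twist1_HCC (37.1% of all tested genes). In the opposite direction they did not overlap for 1 factor (15.7% of all tested genes) and 4 factors (13.4% of all tested genes). Eif5a2 is again among these 4 factors and among the 5 lower in MYC_Recur without overlap.

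Because the median of all tested genes lay off 0 in the deposited values, the counts of calls were repeated after 4 rescalings of the libraries. Statements on which libraries overlap or lie below others, above and below, rest on the deposited values and were not repeated. The median of ratios divided OFF libraries by 0.6828 to 0.8946 and the others by 1.03 to 1.289. That raises OFF values against the rest, so a separation with OFF libraries lowest may not hold after it. With the median of ratios, the median of all tested genes moved to 0.06, 0.01 and -0.07 in the same 3 comparisons, and that of the factors to -0.38, -0.37 and 0.25. The factors called were then 24 lower and 6 higher in MYC_OFF, 22 lower and 6 higher in MYC_Twist1_OFF, and 20 higher and 9 lower in MYC_Recur against MYC_OFF. Of the 13253 tested genes, 3540 were lower and 3828 higher, 2767 lower and 2858 higher, and 2750 higher and 2986 lower in turn. Upper quartile scaling gave 24 lower and 6 higher, 22 lower and 6 higher, and 21 higher and 8 lower. Over all tested genes it gave 3570 lower and 3805 higher, 2777 lower and 2879 higher, and 2840 higher and 2873 lower. The trimmed mean of M values gave 27 lower and 6 higher, 27 lower and 6 higher, and 24 higher and 8 lower. Its counts over all tested genes were 4063 lower and 3417 higher, 3414 lower and 2391 higher, and 3290 higher and 2514 lower. Under the deposited values and all 4 scalings, 21 factors were called lower in both OFF comparisons: Eif1ad, Eif1ax, Eif1b, Eif5, Eif2d, Eif2s1, Eif2b1, Eif2b5, Eif3b, Eif3c, Eif3d, Eif3e, Eif3h, Eif3m, Eif4a1, Eif4a2, Eif4b, Eif4g3, Eif4ebp1, Eef1e1 and Eef1g. Calls kept under every scaling were not counted over all tested genes, so the kept calls here and below are a description only. The lower calls not kept under every scaling were, in MYC_OFF against MYC_HCC, those of Eef1d, Eef2k, Eif1a, Eif2ak3, Eif2b4, Eif2s2, Eif3k, Eif4e, Eif4e2, Eif4ebp2, Eif4enif1, Eif4g2, Eif5b and Eif6. In MYC_Twist1_OFF against MYC_Twist1_HCC they were those of Eef2, Eif1a, Eif2ak3, Eif2s2, Eif3i, Eif3k, Eif3l, Eif4a3, Eif4e, Eif4g1, Eif4g2, Eif4h and Eif6. The higher calls in MYC_Recur against MYC_OFF that were not kept under every scaling were those of Eef1d, Eef2, Eef2k, Eif1ad, Eif2ak1, Eif2ak3, Eif2s2, Eif3i, Eif3k, Eif4a3, Eif4e, Eif4e2, Eif4ebp3, Eif4enif1, Eif4g2 and Eif6. All calls in the other direction were kept, that of Eif5a2 being a description only. Of the called differences in these 3 comparisons, 2 changed direction under a scaling: Eif1a in MYC_OFF against MYC_HCC (-0.43 as deposited, up to 0.13) and Eif4enif1 in MYC_Recur against MYC_OFF (0.61 as deposited, down to -0.04).

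**Figure D1:**
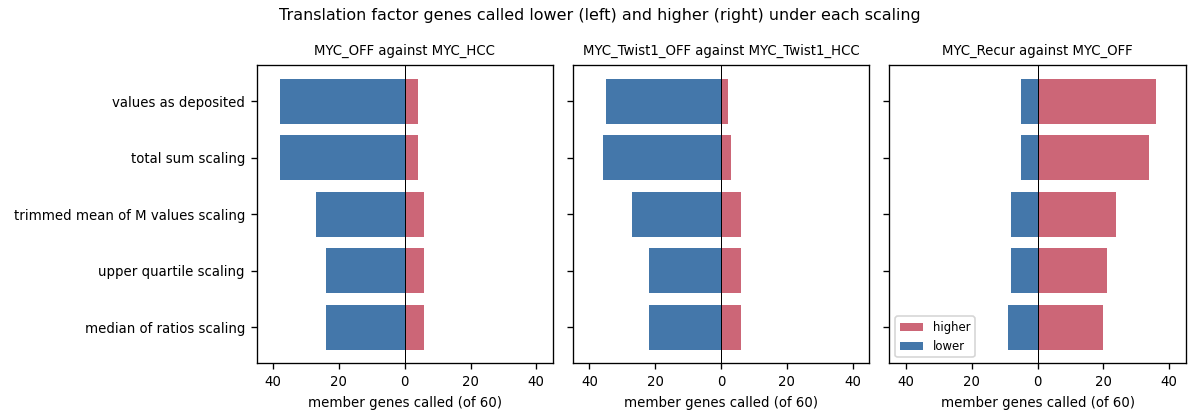
Number of the 60 translation factor genes called lower (blue, to the left) and higher (red, to the right) by limma in 3 comparisons, under the deposited values and 4 rescalings of the libraries. Eif5a2, which passed the filter only through OFF libraries, is counted. The bars of the main direction shorten from 38, 35 and 36 genes with the deposited values to 24, 22 and 20 with the median of ratios, and stay longer than those of the other direction under every scaling shown.

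MYC_OFF against MYC_HCC and MYC_Twist1_OFF against MYC_Twist1_HCC share no library. Of the factors called lower, 30 were called in both, which is 78.9% of the 38 and 85.7% of the 35. For all tested genes the 4000 shared calls were 76.6% of 5221 and 90.0% of 4446. Eef1b2 and Eif2s3y were called higher in both, and no factor was called in opposite directions. MYC_Recur against MYC_OFF and MYC_Twist1_OFF against MYC_Twist1_HCC also share no library, and 29 factors were lower in the second and higher in the first, 82.9% of the 35 and 80.6% of the 36. For all tested genes the 3749 such genes were 84.3% of 4446 and 75.5% of 4964, so the factors' shares are near those of all genes in both pairs of comparisons. The comparisons of MYC_OFF with MYC_HCC and of MYC_Recur with MYC_OFF share the MYC_OFF libraries, so their values are given side by side below and not counted against each other.

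**Figure D2:**
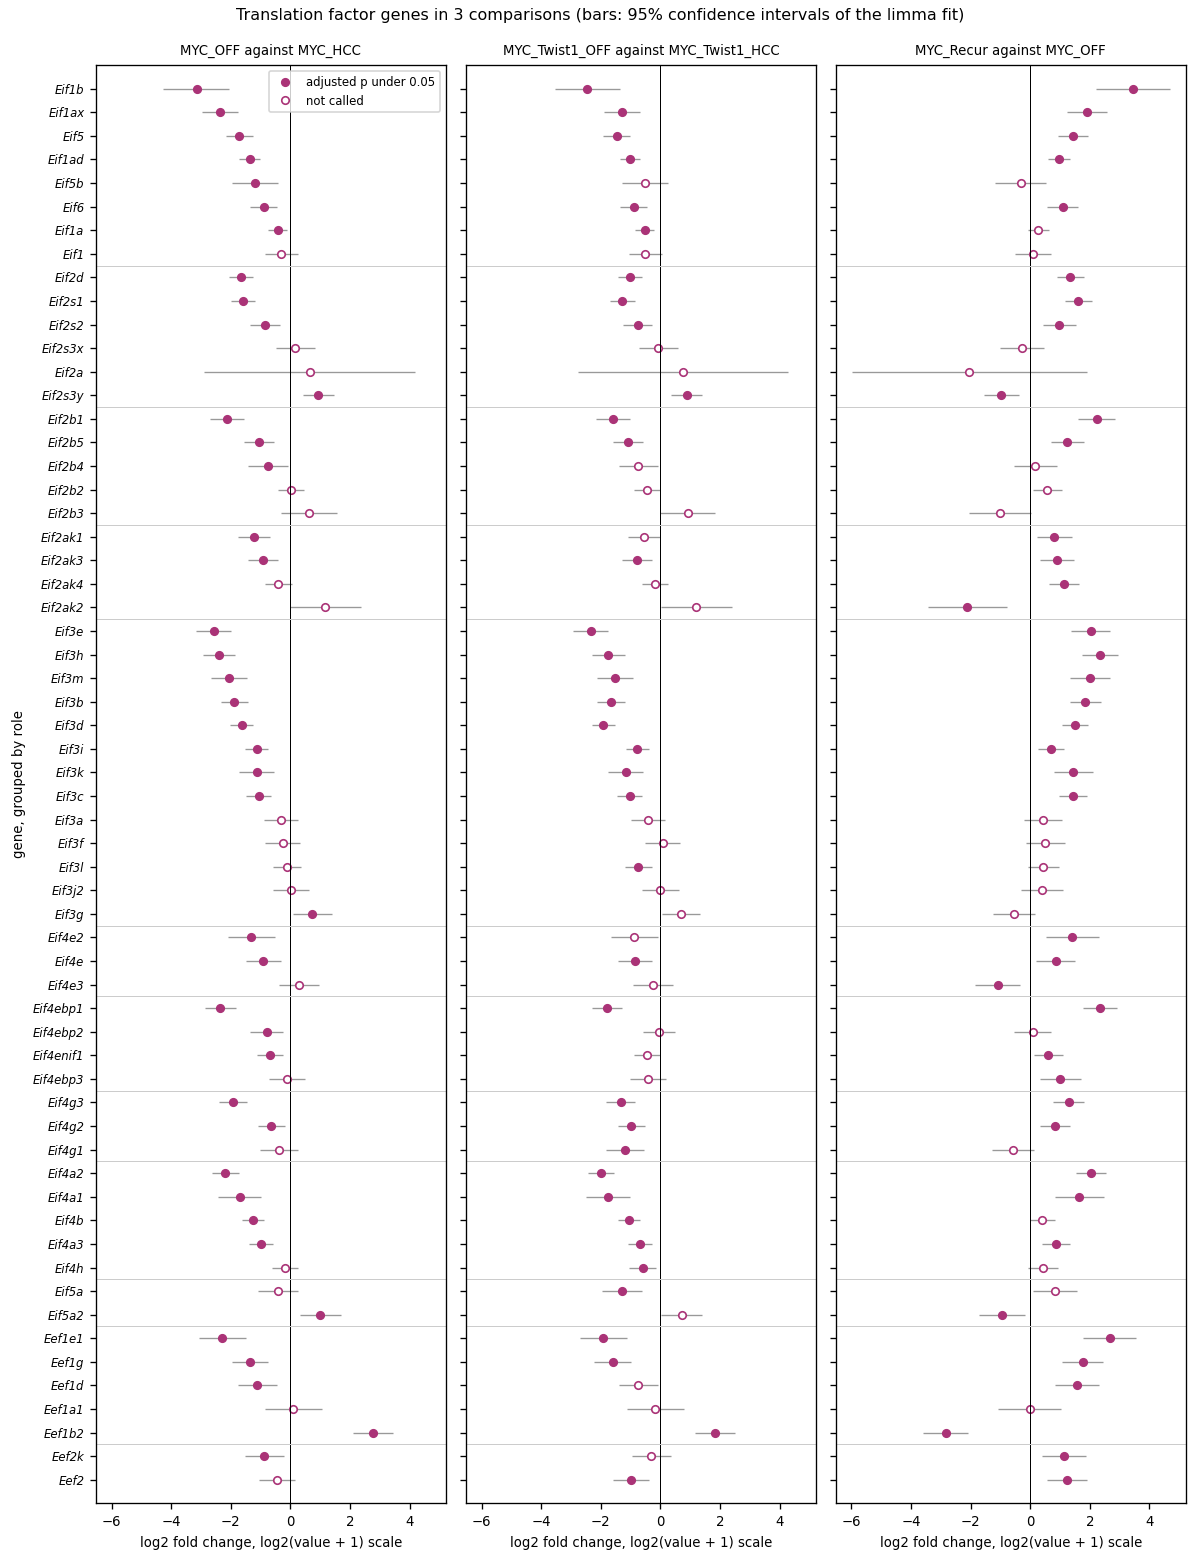
Log2 difference of each of the 60 translation factor genes (points, with 95% confidence intervals as bars) in 3 comparisons, grouped by role with grey lines between roles. Filled points passed an adjusted p of 0.05 in limma. Most points lie left of 0 in the panels of the OFF groups and right of 0 in that of MYC_Recur, and Eef1b2 lies on the other side in each.

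With the deposited values, summed markers of several cell types and of dividing cells differed between these groups. The sums were not repeated after rescaling, so the order of the groups in them may change under a scaling. The 10 hepatocyte markers, none at 0 in any library, summed to 3610 to 4210 in MYC_OFF and 3700 to 4340 in MYC_Twist1_OFF, below the sums in MYC_Twist1_HCC (5410 to 7030), MYC_Recur (6150 to 7230) and MYC_HCC (7310 to 14300). With the deposited values, 8 of the 10 were lower and 1 higher in MYC_OFF than in MYC_HCC. In MYC_Twist1_OFF 6 were lower and 1 higher than in MYC_Twist1_HCC, and in MYC_Recur 7 were higher and 1 lower than in MYC_OFF. The 8 markers of T and NK cells summed to 4.53 to 20.4 in MYC_OFF, 8.1 to 10.1 in MYC_Twist1_OFF, and at most 5.71 in the libraries of the other groups, and Cd3e was at 0 in 5 libraries, Cd8a in 4 and Klrb1c in 9. The 6 endothelial markers summed to 65.4 to 114 in MYC_Twist1_OFF and 31.8 to 88.6 in MYC_OFF, with 10.9 to 82 in MYC_HCC, 9.19 to 20.8 in MYC_Twist1_HCC, 5.13 to 10.4 in MYC_Recur, and Lyve1 at 0 in 6 libraries. Of the 5 tested endothelial markers, 2 were higher and 2 lower in MYC_OFF than in MYC_HCC. In MYC_Twist1_OFF 2 were higher and 1 lower than in MYC_Twist1_HCC, and Pecam1 alone reached 106.49 in a library. The 4 neutrophil markers in the table summed to 11.0 to 77.1 in MYC_OFF, 15.5 to 31.0 in MYC_Twist1_OFF and 12.7 to 25.5 in MYC_Recur, and to at most 11.5 in the HCC groups, with Mpo at 0 in 1 library. Of the 3 tested neutrophil markers, 1 was higher and 1 lower in each comparison of an OFF group with its HCC group. Csf3r alone reached 74.85 in a library. The 6 proliferation genes Mki67, Top2a, Ccnb1, Cdk1, Pcna and Mcm2 summed to 164 to 175 in MYC_OFF and 162 to 196 in MYC_Twist1_OFF, and to 321 or more in every library of the other groups. All 6 were called lower in both OFF comparisons, and 5 were called higher in MYC_Recur than in MYC_OFF. In bulk tissue, fewer cells of a type and less RNA per cell cannot be told apart, and the part of these markers in the factors' differences was not tested.

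Counts by role here and below stand beside those of all tested genes. Of these genes, 39.4% were lower in MYC_OFF than in MYC_HCC and 33.5% lower in MYC_Twist1_OFF than in MYC_Twist1_HCC. In MYC_Recur 37.5% were higher than in MYC_OFF. Each role holds few genes, so its counts are a description only. The group of start codon scanning and subunit joining holds 8 genes, among them Eif1ad and Eif6, whose product keeps the subunits apart. Of the 8, 7 were lower in MYC_OFF than in MYC_HCC and 6 were lower in MYC_Twist1_OFF than in MYC_Twist1_HCC. In MYC_Recur 5 were higher than in MYC_OFF, and none was called the other way in any of these comparisons. Eif1b (chr9:120492232-120495330, plus strand), a close relative of the start codon fidelity factor eIF1, had the largest difference of the 60 factors in all 3 comparisons. Its values were 40.1, 22.1, 33.4, 33.4 and 45.1 in MYC_HCC, 24.2, 63.4, 84.2, 28.9 and 46.4 in MYC_Twist1_HCC and 27.2, 44.5 and 60.1 in MYC_Recur. In the OFF groups they were 3.28, 0.95 and 6.25 in MYC_OFF and 12.1, 1.82 and 14.7 in MYC_Twist1_OFF. No OFF library reached the lowest of the other libraries. Eif1b was lower in MYC_OFF, at -3.15 ± 0.53 (SE, adjusted p = 6.66e-05), lower in MYC_Twist1_OFF, at -2.45 ± 0.53 (SE, adjusted p = 0.0011) and higher in MYC_Recur than in MYC_OFF by 3.45 ± 0.59 (SE, adjusted p = 0.000118). Eif1 itself had group means from 211 ± 82.6 (SD, n = 3) in MYC_Twist1_OFF to 288 ± 51.5 (SD, n = 5) in MYC_HCC and was called in none of the comparisons. The log2 ratio of Eif1b to Eif1 had a median of -2.99 in MYC_HCC, -2.59 in MYC_Twist1_HCC and -2.45 in MYC_Recur, against -5.64 in MYC_OFF and -4.19 in MYC_Twist1_OFF, with no overlap between the OFF libraries and the rest.

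Eif1ax (chrX:159372178-159389928, plus strand), the X-linked gene of eIF1A, which keeps the scanning complex open, had values of 149, 105, 114, 95.7 and 171 in MYC_HCC, 58.3, 46.5, 80.3, 108 and 51.8 in MYC_Twist1_HCC and 83.6, 82.3 and 103 in MYC_Recur. The OFF values were 33.1, 20.7 and 17.9 in MYC_OFF and 35.1, 18.3 and 28.0 in MYC_Twist1_OFF, below every other library. The log2 difference was -2.37 ± 0.29 (SE, adjusted p = 2.41e-06) in MYC_OFF against MYC_HCC, -1.29 ± 0.29 (SE, adjusted p = 0.0015) in MYC_Twist1_OFF against MYC_Twist1_HCC and 1.9 ± 0.32 (SE, adjusted p = 0.000111) in MYC_Recur against MYC_OFF. Its autosomal relative Eif1a differed less, from 83.9 ± 8.65 (SD, n = 5) in MYC_HCC to 62 ± 5.29 (SD, n = 3) in MYC_OFF, a log2 difference of -0.43 whose call was lost without MYC_HCC 1 or MYC_OFF 2 (adjusted p up to 0.093). Its difference of -0.52 (adjusted p = 0.0105) in MYC_Twist1_OFF against MYC_Twist1_HCC was likewise lost without MYC_Twist1_OFF 1 (-0.43, adjusted p = 0.0667). The log2 ratio of Eif1a to Eif1ax was 0.89 to 1.85 in MYC_OFF and 0.69 to 1.84 in MYC_Twist1_OFF. It was -1.23 to -0.07 in MYC_HCC and -0.41 to -0.11 in MYC_Recur, while MYC_Twist1_HCC, at -0.24 to 1.13, overlapped with the OFF groups. Eif5, which triggers GTP hydrolysis by eIF2 at the start codon, had group means of 130 ± 20.4 (SD, n = 5) in MYC_HCC and 108 ± 21.9 (SD, n = 5) in MYC_Twist1_HCC, against 39.9 ± 12.7 and 38.1 ± 6.37 (SD, n = 3 each) in MYC_OFF and MYC_Twist1_OFF.

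Eif6, which keeps the large ribosomal subunit apart from the small one until it is mature, had values of 76.9, 64.1, 70.0, 34.8 and 68.2 in MYC_HCC, 68.8, 64.6, 63.3, 66.9 and 72.6 in MYC_Twist1_HCC and 70.2, 65.2 and 72.0 in MYC_Recur. Among the OFF libraries they were 42.5, 26.4 and 29 in MYC_OFF and 32.5, 39.5 and 35 in MYC_Twist1_OFF. The lowest MYC_HCC library, replicate 4 with 34.8, lay within the OFF range. Eif6 was lower in MYC_OFF, at -0.9 ± 0.22 (SE, adjusted p = 0.00191), lower in MYC_Twist1_OFF, at -0.9 ± 0.22 (SE, adjusted p = 0.00287) and higher in MYC_Recur than in MYC_OFF by 1.09 ± 0.25 (SE, adjusted p = 0.00137), but it is not among the 21 genes called lower in both OFF comparisons under every scaling.

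Of the eIF2 subunits, Eif2s1 and Eif2s2 were lower in both OFF groups, Eif2s3y was higher in both, and Eif2s3x was not called, with Eif2s2 called under only 1 of the 4 other scalings in each comparison. Eif2s1 (chr12:78861819-78887010, plus strand), the alpha subunit whose phosphorylation slows translation under stress, had values of 82.1, 70.6, 88.8, 69.9 and 94.0 in MYC_HCC, 51.1, 55.3, 64.4, 59.5 and 41.0 in MYC_Twist1_HCC and 70.0, 79.1 and 96.1 in MYC_Recur. The 6 OFF libraries had 29.0, 30.4 and 19.5 in MYC_OFF and 22.1, 18.8 and 24.4 in MYC_Twist1_OFF. All OFF libraries were below all others, with log2 differences of -1.6 ± 0.19 (SE, adjusted p = 2.33e-06) in MYC_OFF, -1.27 ± 0.19 (SE, adjusted p = 5.66e-05) in MYC_Twist1_OFF and 1.61 ± 0.22 (SE, adjusted p = 1.35e-05) in MYC_Recur against MYC_OFF. The beta subunit Eif2s2 was lower in MYC_OFF, at -0.85 (adjusted p = 0.00477) and in MYC_Twist1_OFF, at -0.76 (adjusted p = 0.013), the latter not without MYC_Twist1_OFF 2 (adjusted p = 0.07). The non-canonical tRNA carrier Eif2d was lower in both, at -1.66 (adjusted p = 1.65e-06) and -1.03 (adjusted p = 0.000382).

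The gamma subunit is encoded on both sex chromosomes in mice. The X-linked copy, Eif2s3x (chrX:94188707-94212862, minus strand), had values of 117, 82.0, 90.5, 70.2 and 104 in MYC_HCC, 118, 137, 67.8, 119.6 and 132 in MYC_Twist1_HCC and 120.4, 81.1 and 61.0 in MYC_Recur. For the OFF groups they were 63.1, 188 and 90.8 in MYC_OFF and 111, 91.0 and 119 in MYC_Twist1_OFF, inside the range of the other libraries but for the highest, MYC_OFF 2. It was called in no comparison, with 95% confidence intervals of -0.49 to 0.82 in MYC_OFF against MYC_HCC and -0.73 to 0.59 in MYC_Twist1_OFF against MYC_Twist1_HCC, and 34.6% of its transcript words of 50 bases also occur in another gene.

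The Y-linked copy, Eif2s3y (chrY:1010543-1028847, plus strand), shares none of its words with another gene and had values of 30.1, 29.9, 38.3, 44.6 and 27.9 in MYC_HCC, 38.1, 35.8, 49.6, 33.9 and 30.6 in MYC_Twist1_HCC and 32.3, 38.2 and 28.2 in MYC_Recur. In the OFF groups they were 43.1, 95.6 and 66.2 in MYC_OFF and 69.5, 54.3 and 89.4 in MYC_Twist1_OFF. The 3 MYC_Twist1_OFF libraries were above all MYC_Twist1_HCC libraries, while MYC_OFF 1 lay within the MYC_HCC range. Eif2s3y was higher in MYC_OFF by 0.93 ± 0.25 (SE, adjusted p = 0.00373), higher in MYC_Twist1_OFF by 0.89 ± 0.25 (SE, adjusted p = 0.00692) and lower in MYC_Recur than in MYC_OFF, at -0.97 ± 0.28 (SE, adjusted p = 0.00741), with all 3 calls kept under the 4 scalings. The call in MYC_Recur against MYC_OFF was lost without MYC_OFF 2 (log2 difference of -0.69, adjusted p = 0.0527). The other Y-linked genes differed among themselves. Ddx3y, a helicase gene, was lower in both OFF groups, at -0.97 (adjusted p = 0.00665), a call not kept under all 4 scalings, and -1.18 (adjusted p = 0.0025). Uty, a histone demethylase relative, was higher in both, by 0.87 (adjusted p = 0.00511) and 0.6 (adjusted p = 0.0493), and Kdm5d was not called. Uty was lower in MYC_Recur than in MYC_OFF, at -2.22 (adjusted p = 5.33e-06). Xist, the RNA of the inactive X chromosome, was at most 0.02 in every library.

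**Figure D3:**
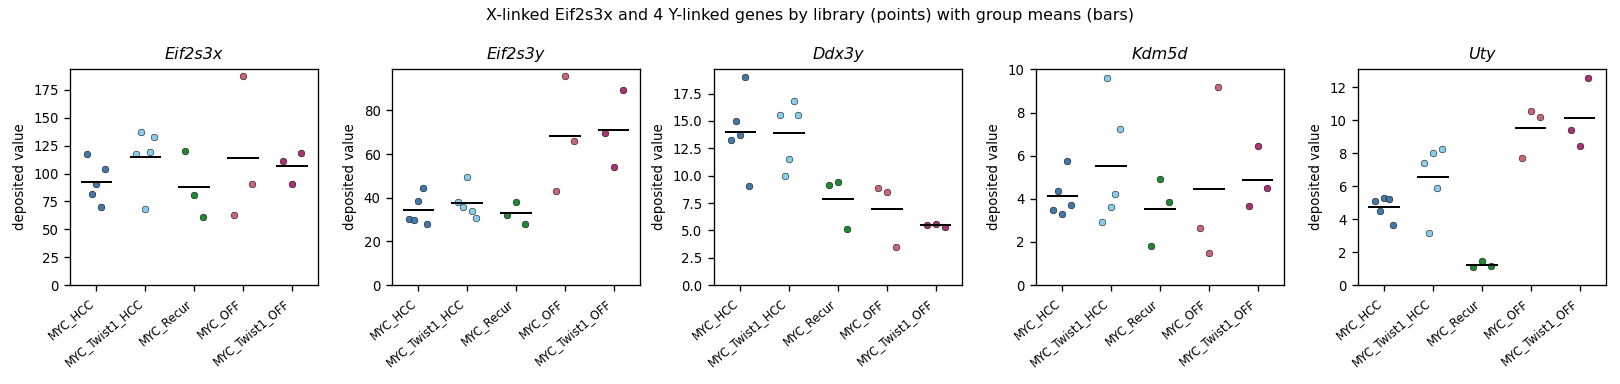
Deposited values of X-linked Eif2s3x and of 4 Y-linked genes in each library (points) with group means (bars). Eif2s3y is highest in the OFF groups, Ddx3y is lower there than in the HCC groups, Kdm5d shows no called difference, and the 3 MYC_Recur libraries are the lowest of all for Uty.

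Eif2a (no subunit of eIF2 but a separate tRNA carrier) varied widely between replicates. Its values were 98.0, 70.5, 121, 74.0 and 88.5 in MYC_HCC, 100.3, 4.83, 40.5, 64.4 and 18.5 in MYC_Twist1_HCC and 10.5, 12.6 and 251 in MYC_Recur. The OFF values were 534, 2046 and 1.52 in MYC_OFF and 633, 24.2 and 8.66 in MYC_Twist1_OFF. The 3 MYC_OFF libraries ranged from 1.52 to 2046.5, and no comparison was called, with a 95% confidence interval of -2.89 to 4.18 for MYC_OFF against MYC_HCC.

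Of the 5 subunits of eIF2B, the exchange factor that reloads eIF2 with GTP, Eif2b1, Eif2b4 and Eif2b5 were lower in MYC_OFF than in MYC_HCC, Eif2b1 and Eif2b5 were lower in MYC_Twist1_OFF than in MYC_Twist1_HCC and higher in MYC_Recur than in MYC_OFF, and Eif2b2 and Eif2b3 were not called with the deposited values. Under 3 of the 4 scalings Eif2b3 was called higher in both OFF comparisons (0.64 and 0.92 as deposited) and lower in MYC_Recur than in MYC_OFF (-1.03 as deposited). Eif2b1, the alpha subunit that senses phosphorylated eIF2, had values of 59.5, 64.8, 44.8, 38.1 and 53.9 in MYC_HCC, 39.1, 40.7, 43.1, 44.6 and 26.3 in MYC_Twist1_HCC and 61.4, 39.0 and 69.7 in MYC_Recur. Among the OFF libraries they were 16.5, 9.37 and 8.43 in MYC_OFF and 9.58, 17.1 and 10.5 in MYC_Twist1_OFF. Every OFF library was below every other library, and the log2 difference was -2.13 ± 0.27 (SE, adjusted p = 3.28e-06) in MYC_OFF, -1.59 ± 0.27 (SE, adjusted p = 0.000131) in MYC_Twist1_OFF and 2.23 ± 0.3 (SE, adjusted p = 1.25e-05) in MYC_Recur against MYC_OFF. For Eif2b4 the call (-0.75, adjusted p = 0.0475) held in only 7 of the 19 fits that left out 1 library (those without MYC_HCC 4, MYC_Twist1_HCC 1, 2 or 4, MYC_OFF 1 or MYC_Twist1_OFF 2 or 3). In the other 12 the adjusted p was between 0.0503 and 0.233, with a difference of -0.5 without MYC_OFF 3.

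The kinases that phosphorylate eIF2 split. Eif2ak1 (HRI, the haem-regulated kinase), Eif2ak3 (PERK, the kinase of the endoplasmic reticulum) and Eif2ak4 (GCN2, the amino acid sensor) were higher in MYC_Recur than in MYC_OFF, by 0.81 (adjusted p = 0.0244), 0.91 (adjusted p = 0.0102) and 1.13 (adjusted p = 0.000874). Leaving out MYC_OFF 2, MYC_OFF 3 or MYC_Recur 2 ended the call of Eif2ak1 (adjusted p up to 0.103), and leaving out MYC_Recur 3 ended that of Eif2ak3 (adjusted p = 0.0539). The call of Eif2ak1 held under 0 of the 4 scalings (down to 0.19, adjusted p up to 0.564), that of Eif2ak3 under 1 (down to 0.41, adjusted p up to 0.226) and that of Eif2ak4 under all 4. Eif2ak1 and Eif2ak3 were lower in MYC_OFF than in MYC_HCC, at -1.23 (adjusted p = 0.000507) and -0.92 (adjusted p = 0.00355), with the first kept under all 4 scalings and the second under 2. Eif2ak3 was also lower in MYC_Twist1_OFF, at -0.77 (adjusted p = 0.0146), but not without MYC_Twist1_OFF 1 or 2 (adjusted p up to 0.0649), and under only 1 of the 4 scalings. Eif2ak2 (PKR, the kinase activated by double-stranded RNA) was lower in MYC_Recur than in MYC_OFF, at -2.11 ± 0.63 (SE, adjusted p = 0.0103). Its values were 6.97, 6.61, 11.0, 12.0 and 8.2 in MYC_HCC, 12.5, 5.11, 6.86, 7.62 and 13.3 in MYC_Twist1_HCC and 3.32, 4.17 and 4.75 in MYC_Recur. The 6 OFF libraries had 94.7, 15.1 and 5.75 in MYC_OFF and 34.5, 22.5 and 12.1 in MYC_Twist1_OFF. MYC_OFF 1 lay far above the rest, and without it the log2 difference was -1.04 (adjusted p = 0.0627). The 3 MYC_Recur libraries remained below all 6 OFF libraries. The differences of Eif2ak2 in MYC_OFF against MYC_HCC (1.17) and in MYC_Twist1_OFF against MYC_Twist1_HCC (1.21) were not called with the deposited values. Under 3 of the 4 scalings Eif2ak2 was called higher in both. The first difference went down to 0.1 when 1 library was left out.

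eIF3, the largest initiation factor and the platform on which the small subunit is assembled, had 13 genes in the set. Of these, 8 were lower in MYC_OFF than in MYC_HCC (Eif3b, Eif3c, Eif3d, Eif3e, Eif3h, Eif3i, Eif3k and Eif3m) and 1, Eif3g, was higher. With the deposited values the 8 and Eif3l were lower in MYC_Twist1_OFF than in MYC_Twist1_HCC, with none higher, and the 8 were higher in MYC_Recur than in MYC_OFF, with none lower. Eif3a, Eif3f and Eif3j2 were called in none of the 3. The call of Eif3l was lost without MYC_Twist1_OFF 2 (log2 difference of -0.48, adjusted p = 0.0966).

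Eif3e (chr15:43250058-43282719, minus strand) had values of 221, 264, 264, 197 and 242 in MYC_HCC, 158, 131, 233, 161 and 74.3 in MYC_Twist1_HCC and 158, 124 and 219 in MYC_Recur. For the OFF groups they were 46.8, 29.5 and 42.5 in MYC_OFF and 28.2, 25.3 and 29.0 in MYC_Twist1_OFF. Every OFF library was below the lowest other library, MYC_Twist1_HCC 5 with 74.3. The log2 difference was -2.57 ± 0.28 (SE, adjusted p = 8.31e-07) in MYC_OFF, -2.33 ± 0.28 (SE, adjusted p = 6.98e-06) in MYC_Twist1_OFF and 2.03 ± 0.31 (SE, adjusted p = 4.52e-05) in MYC_Recur against MYC_OFF. Eif3h (chr15:51786558-51865523, minus strand) had values of 359, 365, 374, 260.5 and 314 in MYC_HCC, 214, 206, 287, 282 and 149.8 in MYC_Twist1_HCC and 283, 274 and 409 in MYC_Recur. In the OFF groups they were 97.7, 49.6 and 48.4 in MYC_OFF and 69.7, 57.0 and 71.1 in MYC_Twist1_OFF. The groups again did not overlap, with differences of -2.41 ± 0.26 (SE, adjusted p = 6.69e-07), -1.74 ± 0.26 (SE, adjusted p = 4.07e-05) and 2.34 ± 0.29 (SE, adjusted p = 5.76e-06) in the same order, and 20.3% of its transcript words of 50 bases occur in another gene. Eif3d (chr15:77958998-77970813, minus strand), a subunit that can bind the cap of some mRNAs, had values of 158, 182, 146, 128 and 179.8 in MYC_HCC, 127, 147, 153, 132 and 119 in MYC_Twist1_HCC and 166, 129.9 and 135 in MYC_Recur. The OFF values were 55.6, 36.4 and 60.5 in MYC_OFF and 35.4, 32.9 and 37.1 in MYC_Twist1_OFF, all below the lowest other library. It was lower, at -1.64 ± 0.19 (SE, adjusted p = 1.15e-06) in MYC_OFF and, at -1.92 ± 0.19 (SE, adjusted p = 1.07e-06) in MYC_Twist1_OFF.

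Eif3g, an RNA-binding subunit, went the other way in MYC_OFF, and in the other 2 comparisons its call depended on the scaling. Its values were 261, 201, 359, 167 and 301 in MYC_HCC, 221, 239.7, 252, 240.5 and 305 in MYC_Twist1_HCC and 189.8, 347 and 354 in MYC_Recur. Among the OFF libraries they were 693, 294 and 352 in MYC_OFF and 522, 323 and 385 in MYC_Twist1_OFF. MYC_OFF 1 was far above the other 2 MYC_OFF libraries, which overlapped with MYC_HCC. The log2 difference was 0.74 ± 0.3 (SE, adjusted p = 0.0444) in MYC_OFF against MYC_HCC, and the call was lost without any 1 of 9 libraries (MYC_HCC 1, 2 or 4, MYC_Twist1_HCC 1, 2, 3 or 4, MYC_OFF 1 or MYC_Twist1_OFF 3), with a difference of 0.37 (adjusted p = 0.312) without MYC_OFF 1. The difference of 0.68 (adjusted p = 0.0737) in MYC_Twist1_OFF against MYC_Twist1_HCC did not pass with the deposited values, but Eif3g was called higher under all 4 scalings (0.71 to 1.13). In MYC_Recur against MYC_OFF the difference of -0.54 (adjusted p = 0.197) did not pass either, and it was called lower under 3 of the 4 scalings (-1.22 to -0.63 over the 4). For Eif3j2, 91.8% of its transcript words of 50 bases occur in another gene, most of them in Eif3j1. As Eif3j1 was listed at 0.10 or less, the Eif3j2 row may hold reads of both genes.

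**Figure D4:**
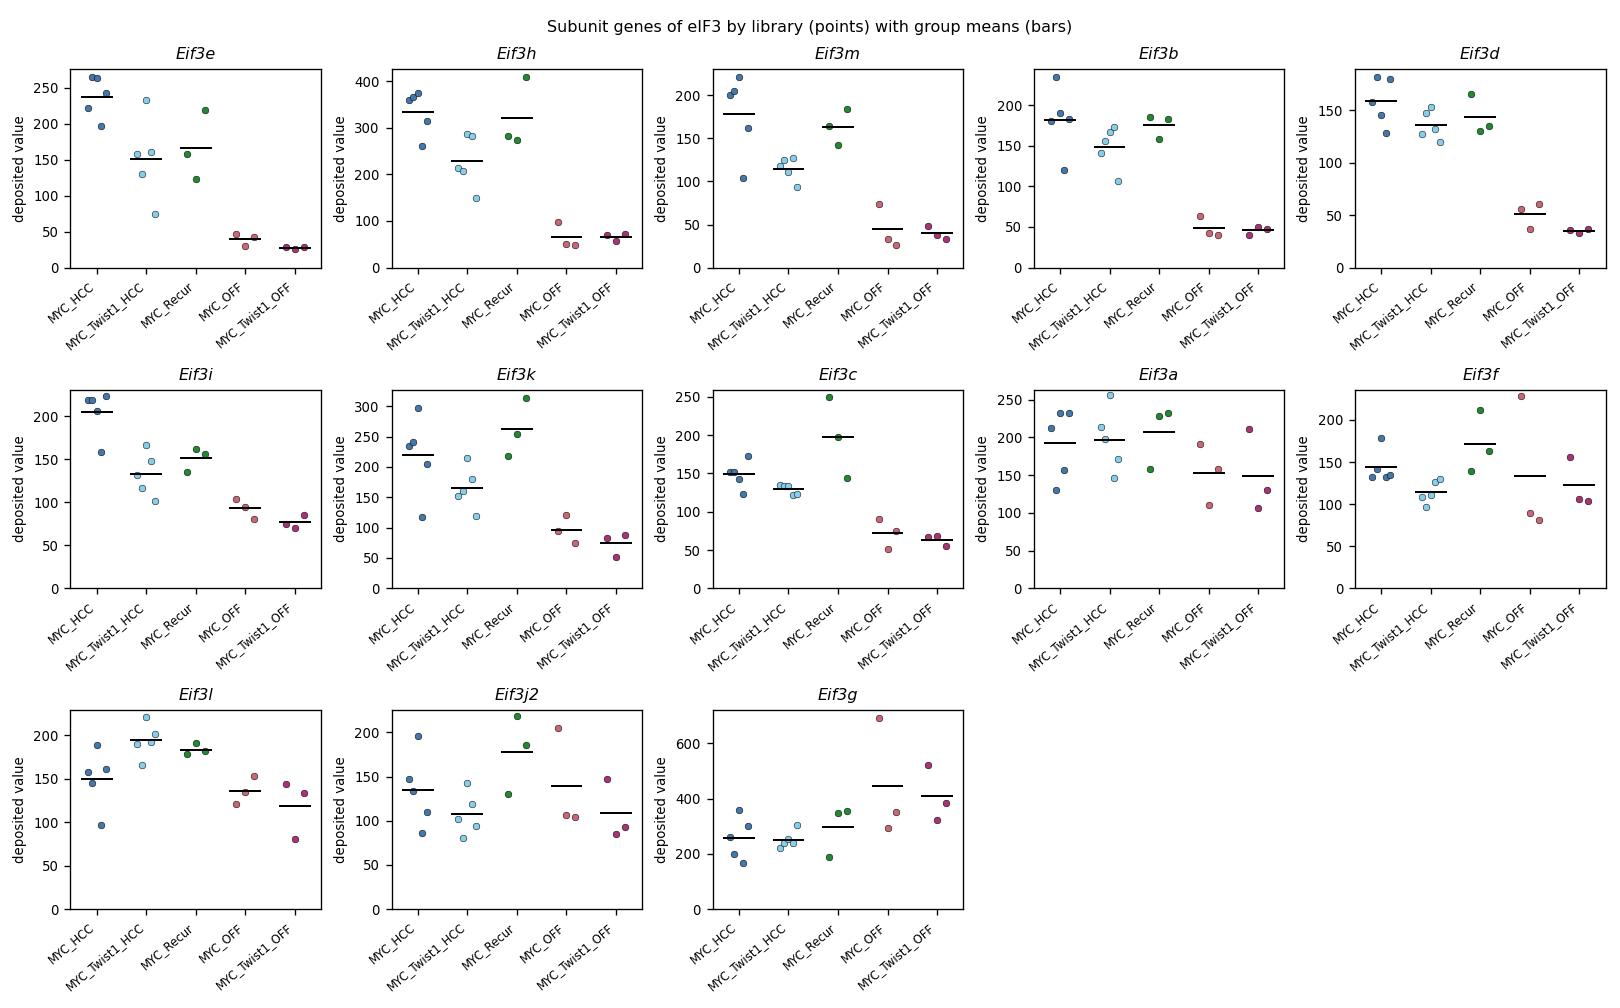
Deposited values of the 13 eIF3 subunit genes in each library (points) with group means (bars), ordered by their difference in MYC_OFF against MYC_HCC. The first 8 genes have lower means in both OFF groups than in the HCC and MYC_Recur groups. In Eif3k, MYC_OFF 2 lies above MYC_HCC 4 and MYC_Twist1_HCC 5, and in Eif3i, MYC_OFF 1 lies above MYC_Twist1_HCC 5. Eif3a, Eif3f and Eif3j2 overlap across groups, and Eif3g reaches its highest value in MYC_OFF 1.

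Of the cap-binding proteins, Eif4e (chr3:138526179-138559696, plus strand), the limiting component of eIF4F, had values of 100.3, 106, 105, 61.6 and 48.4 in MYC_HCC, 75.6, 73.4, 91.9, 92.8 and 73.3 in MYC_Twist1_HCC and 68.0, 69.8 and 96.6 in MYC_Recur. The 6 OFF libraries had 61.9, 30.9 and 39.4 in MYC_OFF and 55.6, 34.3 and 46.1 in MYC_Twist1_OFF. MYC_OFF 1 with 61.9 was above MYC_HCC 4 and 5. Eif4e was lower in MYC_OFF, at -0.91 ± 0.28 (SE, adjusted p = 0.00891), lower in MYC_Twist1_OFF, at -0.85 ± 0.28 (SE, adjusted p = 0.0178) and higher in MYC_Recur than in MYC_OFF by 0.85 ± 0.31 (SE, adjusted p = 0.0288). Each call was lost when 1 OFF library was left out. Without MYC_OFF 2 the differences were -0.69 (adjusted p = 0.0661) and 0.63 (adjusted p = 0.133), without MYC_Twist1_OFF 2 it was -0.67 (adjusted p = 0.0985), and the call in MYC_Recur against MYC_OFF was also lost without MYC_OFF 3 or MYC_Recur 3. Eif4e2, a weaker cap binder linked to translational repression, was lower in MYC_OFF, at -1.31 (adjusted p = 0.00663) and higher in MYC_Recur by 1.41 (adjusted p = 0.0103), both lost without MYC_OFF 2 (adjusted p = 0.0643 and 0.0685), the latter also without MYC_Recur 3. Eif4e3 was lower in MYC_Recur, at 0.06, 0.26 and 0.23, than in MYC_OFF, at 3.86, 0.82 and 0.77, a call that was lost without MYC_OFF 1 (log2 difference of -0.61, adjusted p = 0.122) or MYC_Recur 1.

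Eif4ebp1 (chr8:27260329-27276674, plus strand), the mTORC1-controlled repressor that binds eIF4E, had values of 143, 186, 116, 107 and 133 in MYC_HCC, 109, 128, 107, 139 and 87.2 in MYC_Twist1_HCC and 163, 112 and 129.5 in MYC_Recur. For the OFF groups they were 34.9, 22.1 and 21.6 in MYC_OFF and 22.0, 41.6 and 34.2 in MYC_Twist1_OFF. No OFF library reached the lowest other library, MYC_Twist1_HCC 5 with 87.2. The log2 difference was -2.35 ± 0.24 (SE, adjusted p = 4.90e-07) in MYC_OFF, -1.8 ± 0.24 (SE, adjusted p = 1.75e-05) in MYC_Twist1_OFF and 2.33 ± 0.27 (SE, adjusted p = 3.77e-06) in MYC_Recur against MYC_OFF. Its relative Eif4ebp2 differed less. In MYC_OFF against MYC_HCC it was lower, at -0.8 (adjusted p = 0.0127), which was lost without MYC_OFF 3 (adjusted p = 0.105), and differed by -0.04 in MYC_Twist1_OFF against MYC_Twist1_HCC, with a 95% confidence interval of -0.59 to 0.5. The log2 ratio of Eif4ebp2 to Eif4ebp1 was -0.61 to -0.04 in MYC_OFF and -1.06 to 0.38 in MYC_Twist1_OFF. It was lower in every library of MYC_Recur (-3.2 to -1.9), MYC_Twist1_HCC (-2.51 to -1.98) and MYC_HCC (-2.73 to -1.21). Eif4ebp3 was higher in MYC_Recur than in MYC_OFF by 1.01 (adjusted p = 0.0142), lost without MYC_OFF 2 (adjusted p = 0.0564), and 65.5% of its transcript words of 50 bases also occur in 1 other gene.

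The 3 scaffolds also differed. Eif4g3 was lower in both OFF groups, at -1.91 ± 0.23 (SE, adjusted p = 1.83e-06) and -1.33 ± 0.23 (SE, adjusted p = 0.000148), and higher in MYC_Recur than in MYC_OFF, by 1.29 ± 0.25 (SE, adjusted p = 0.000438). Eif4g2, whose protein lacks the site for eIF4E, was lower in both OFF groups, at -0.64 (adjusted p = 0.0165) and -0.97 (adjusted p = 0.00134), and higher in MYC_Recur, by 0.83 (adjusted p = 0.00846); leaving out MYC_OFF 2 ended the first call (adjusted p = 0.116), and MYC_OFF 2 or MYC_Recur 3 the last (adjusted p up to 0.0578). Eif4g1 (chr16:20668313-20692884, plus strand), the main scaffold, had values of 173, 114, 128, 159.6 and 203 in MYC_HCC, 273, 148, 229, 196 and 207 in MYC_Twist1_HCC and 115, 78.6 and 52.9 in MYC_Recur. In the OFF groups they were 65.7, 164 and 151 in MYC_OFF and 100.2, 81.2 and 89.7 in MYC_Twist1_OFF. The 3 MYC_Twist1_OFF libraries were below all MYC_Twist1_HCC libraries (difference of -1.19 ± 0.3, SE, adjusted p = 0.00387), while MYC_OFF overlapped with MYC_HCC (95% confidence interval of -1.01 to 0.26). In MYC_Recur against MYC_OFF its difference of -0.58 (adjusted p = 0.16) was not called with the deposited values. Under 3 of the 4 scalings Eif4g1 was called lower there (-1.26 to -0.67 over the 4).

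All 5 helicase genes and cofactors were lower in MYC_Twist1_OFF than in MYC_Twist1_HCC, 4 were lower in MYC_OFF than in MYC_HCC, and 3 were higher in MYC_Recur than in MYC_OFF. Eif4a1 (chr11:69666936-69672423, minus strand), the helicase of eIF4F, had values of 830.2, 778, 1631, 487 and 806 in MYC_HCC, 496, 506, 644, 631 and 512 in MYC_Twist1_HCC and 574, 810.02 and 1126 in MYC_Recur. The OFF values were 441, 234 and 165 in MYC_OFF and 198, 129 and 169 in MYC_Twist1_OFF. All OFF libraries were below all others, with differences of -1.7 ± 0.35 (SE, adjusted p = 0.000438) in MYC_OFF, -1.76 ± 0.35 (SE, adjusted p = 0.00053) in MYC_Twist1_OFF and 1.64 ± 0.39 (SE, adjusted p = 0.00195) in MYC_Recur against MYC_OFF, and 28.4% of its transcript words of 50 bases occur in other genes. Eif4a2 (chr16:23107444-23114136, plus strand), its close relative, had values of 89.2, 123, 108, 66.0 and 79.4 in MYC_HCC, 57.5, 66.1, 78.6, 81.5 and 50.5 in MYC_Twist1_HCC and 83.8, 87.0 and 78.0 in MYC_Recur. Among the OFF libraries they were 24.4, 17.7 and 16.5 in MYC_OFF and 15.9, 14.6 and 17.2 in MYC_Twist1_OFF. The OFF libraries were again the lowest, with differences of -2.18 ± 0.21 (SE, adjusted p = 2.97e-07), -1.98 ± 0.21 (SE, adjusted p = 2.25e-06) and 2.05 ± 0.24 (SE, adjusted p = 3.76e-06) in the same order. Eif4a3, the helicase of the exon junction complex, was lower in both OFF groups, at -0.99 (adjusted p = 0.00035) and -0.68 (adjusted p = 0.00895). Eif4b, which stimulates the helicase, was lower in both OFF groups, at -1.27 (adjusted p = 1.18e-05) and -1.05 (adjusted p = 0.000152), and its difference in MYC_Recur against MYC_OFF was 0.4 (adjusted p = 0.103). Eif4h, a relative of Eif4b, was lower in MYC_Twist1_OFF, at -0.59 (adjusted p = 0.0297), a call lost without MYC_Twist1_HCC 3 or 4 or MYC_Twist1_OFF 2 or 3 (adjusted p up to 0.161).

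**Figure D5:**
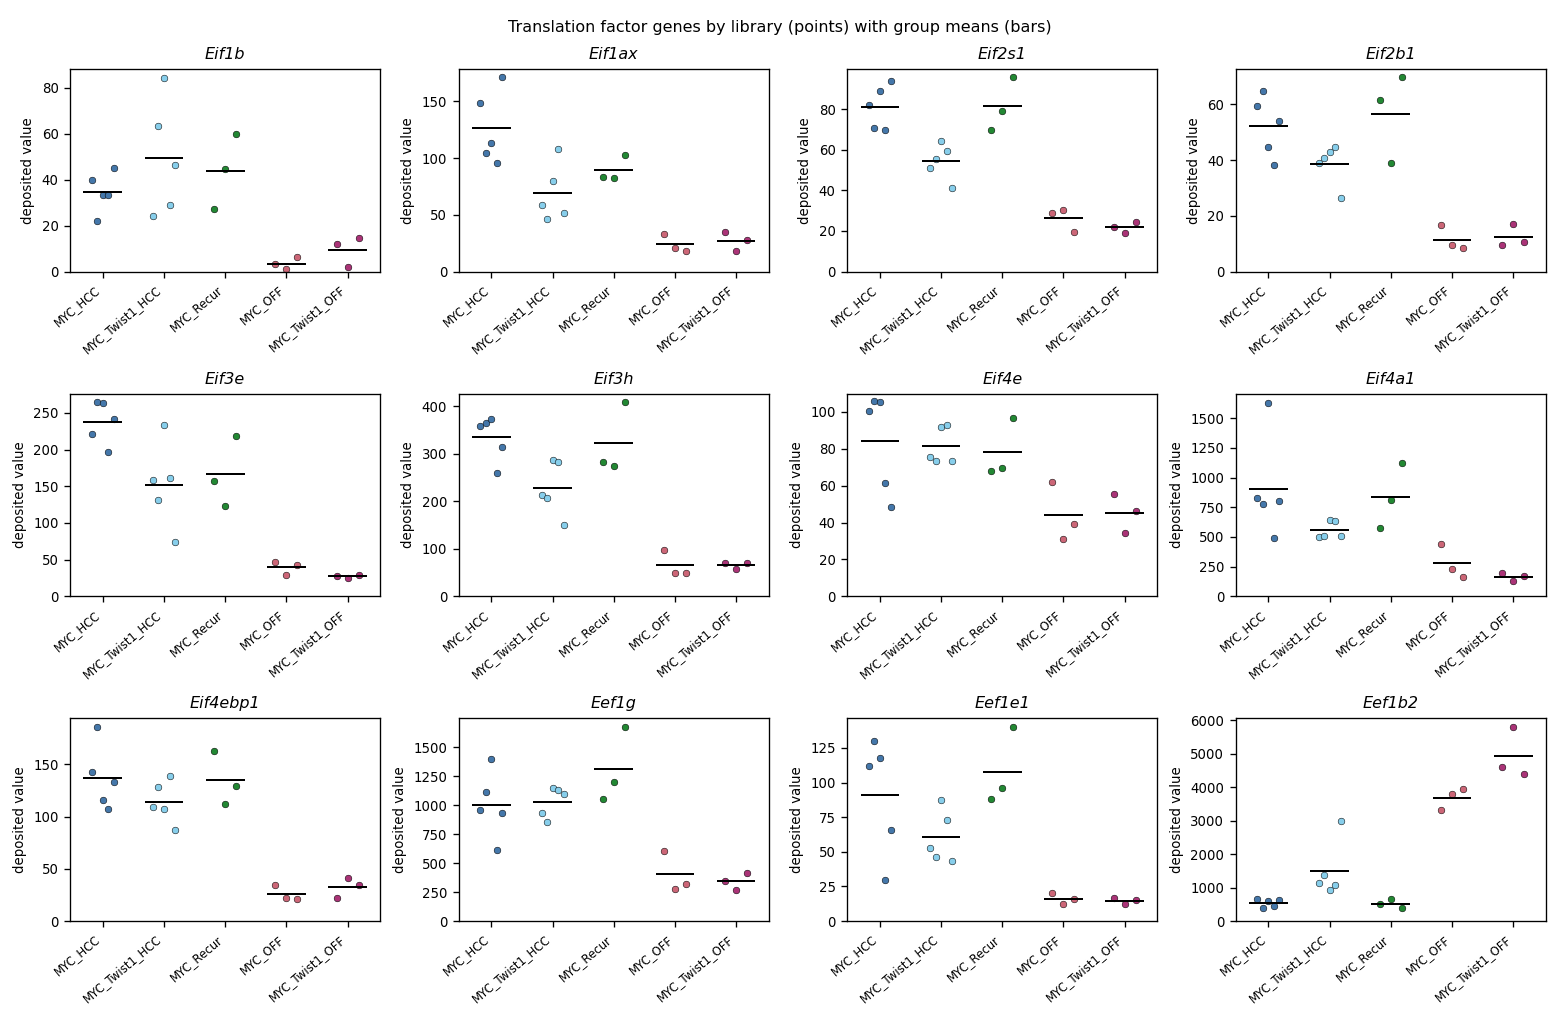
Deposited values of 12 translation factor genes in each library (points) with group means (bars). In all panels but those of Eif4e, where the groups overlap, and Eef1b2, every OFF library is below every library of the other 3 groups, and Eef1b2 is highest in the 6 OFF libraries.

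Eif5a (chr11:69916714-69921958, minus strand), the hypusine-bearing factor that helps ribosomes past difficult stretches such as runs of proline, had values of 1455, 1513, 2132, 779 and 1329.6 in MYC_HCC, 2037, 1546, 2502, 1688 and 1497 in MYC_Twist1_HCC and 1512, 2124 and 1901 in MYC_Recur. The 6 OFF libraries had 1228, 723 and 1213 in MYC_OFF and 947, 522 and 830.2 in MYC_Twist1_OFF. MYC_Twist1_OFF was below MYC_Twist1_HCC without overlap (difference of -1.29 ± 0.31, SE, adjusted p = 0.00279), while MYC_OFF overlapped with MYC_HCC (difference of -0.42 ± 0.31, SE, adjusted p = 0.258). The difference of 0.83 ± 0.35 (SE, adjusted p = 0.0561) in MYC_Recur against MYC_OFF missed the threshold. Eif5a2, its relative, was 5.19, 0.56 and 0.83 in MYC_OFF and 1.43, 1.4 and 0.69 in MYC_Twist1_OFF, and at most 0.6 in every other library. Its calls, higher in MYC_OFF than in MYC_HCC and lower in MYC_Recur than in MYC_OFF, were both lost without MYC_OFF 1 (differences of 0.39 and -0.32, adjusted p = 0.138 and 0.275), and the second also without any 1 MYC_Recur library.

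Among the eEF1 genes, Eef1e1, Eef1g and Eef1d were lower in MYC_OFF than in MYC_HCC and higher in MYC_Recur than in MYC_OFF, Eef1b2 went the opposite way, and Eef1a1 was not called. Eef1a1 (chr9:78478449-78489151, minus strand), the tRNA-carrying factor itself, had values of 8966, 6338, 8995, 4509 and 5258 in MYC_HCC, 11698, 8603, 10931, 12773 and 16581 in MYC_Twist1_HCC and 10879.9, 9728 and 3158 in MYC_Recur. For the OFF groups they were 6174, 4067 and 13952 in MYC_OFF and 8741, 10135 and 13299 in MYC_Twist1_OFF. The groups overlapped, and the spread within MYC_Recur and within MYC_OFF was wide. The 95% confidence interval of the log2 difference was -0.84 to 1.05 in MYC_OFF, -1.11 to 0.78 in MYC_Twist1_OFF and -1.08 to 1.03 in MYC_Recur against MYC_OFF. Of its transcript words of 50 bases, 39.4% occur in 20 other genes.

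Eef1b2 (chr1:63176825-63180486, plus strand), the eEF1B subunit that exchanges the nucleotide on eEF1A, had values of 649, 398, 593, 464 and 632 in MYC_HCC, 1146, 1389, 928, 1078 and 2982 in MYC_Twist1_HCC and 505, 646 and 404 in MYC_Recur. In the OFF groups they were 3304, 3778 and 3935 in MYC_OFF and 4595, 5779 and 4383 in MYC_Twist1_OFF. The 6 OFF libraries were the highest, above MYC_Twist1_HCC 5 with 2982. Eef1b2 was higher in MYC_OFF by 2.77 ± 0.32 (SE, adjusted p = 1.37e-06), higher in MYC_Twist1_OFF by 1.84 ± 0.32 (SE, adjusted p = 0.000169) and lower in MYC_Recur than in MYC_OFF, at -2.84 ± 0.36 (SE, adjusted p = 6.37e-06), under all 4 scalings and in all 19 fits without 1 library. Of its transcript words of 50 bases, 8.28% occur in 4 other genes.

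Eef1g was called the other way in all 3 comparisons and Eef1d in 2 of them. Eef1g (chr19:8967041-8978479, plus strand), the structural subunit, had values of 961, 1115, 1401, 611 and 930.1 in MYC_HCC, 932, 854, 1146, 1133 and 1095 in MYC_Twist1_HCC and 1052, 1199 and 1679 in MYC_Recur. The OFF values were 609, 274 and 324 in MYC_OFF and 342, 267 and 419 in MYC_Twist1_OFF. MYC_OFF 1 with 609.4 lay just below MYC_HCC 4 with 610.8, and no OFF library reached the others. The differences were -1.35 ± 0.29 (SE, adjusted p = 0.000719) in MYC_OFF, -1.6 ± 0.29 (SE, adjusted p = 0.000268) in MYC_Twist1_OFF and 1.76 ± 0.33 (SE, adjusted p = 0.000253) in MYC_Recur against MYC_OFF, and 44.2% of the transcript words of Eef1g occur in other genes. Eef1d, another exchange subunit, was lower in MYC_OFF, at -1.12 (adjusted p = 0.00523) and higher in MYC_Recur by 1.57 (adjusted p = 0.00121), and differed by -0.74 (adjusted p = 0.0607) in MYC_Twist1_OFF against MYC_Twist1_HCC. Eef1e1 (chr13:38644207-38659058, minus strand), a scaffold protein of the aminoacyl-tRNA synthetase complex also known as AIMP3, shares no words with another gene and had values of 112, 130.3, 118, 29.6 and 65.8 in MYC_HCC, 52.7, 46.5, 87.6, 73.2 and 43.6 in MYC_Twist1_HCC and 88.0, 95.8 and 139.9 in MYC_Recur. Among the OFF libraries they were 20.1, 12.6 and 15.6 in MYC_OFF and 16.9, 12.3 and 15.5 in MYC_Twist1_OFF. MYC_HCC 4 was the lowest library outside the OFF groups and still above all of these. The differences were -2.28 ± 0.38 (SE, adjusted p = 6.26e-05), -1.92 ± 0.38 (SE, adjusted p = 0.000533) and 2.66 ± 0.42 (SE, adjusted p = 5.79e-05) in the same order.

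Eef2 (chr10:81176631-81182498, plus strand), the translocation factor, had values of 666, 574, 924, 583 and 730.4 in MYC_HCC, 1058, 856, 1259.8, 915 and 789 in MYC_Twist1_HCC and 956, 1307 and 1319 in MYC_Recur. The 6 OFF libraries had 359, 434 and 806 in MYC_OFF and 536, 321 and 674 in MYC_Twist1_OFF. MYC_OFF overlapped with MYC_HCC, MYC_Twist1_OFF lay below MYC_Twist1_HCC, and all 6 OFF libraries were below MYC_Recur. Eef2 was higher in MYC_Recur than in MYC_OFF by 1.24 ± 0.32 (SE, adjusted p = 0.00435), lower in MYC_Twist1_OFF, at -0.98 ± 0.29 (SE, adjusted p = 0.0108), and not called in MYC_OFF against MYC_HCC (-0.45, adjusted p = 0.192). The second call was lost without MYC_Twist1_OFF 2 (difference of -0.68, adjusted p = 0.0889). Each of the 2 calls held under only 1 of the 4 scalings, the first going down to 0.56 (adjusted p up to 0.242) and the second to -0.53 (adjusted p up to 0.219). Its inhibitory kinase Eef2k was lower in MYC_OFF, at -0.87 (adjusted p = 0.0227) and higher in MYC_Recur by 1.13 (adjusted p = 0.0121); the first was lost without MYC_HCC 2, MYC_OFF 2 or MYC_OFF 3 (adjusted p up to 0.139) and the second without MYC_OFF 3 or MYC_Recur 1 (up to 0.0877).

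The HCC groups differed from each other in few factors. In MYC_Twist1_HCC against MYC_HCC, 1 factor was called higher and 4 lower, against 3.2% and 3.23% of all tested genes. The median difference was -0.13 for the factors and -0.01 for all tested genes. Eef1b2 was higher by 1.34 ± 0.28 (SE, adjusted p = 0.00803), with all 5 MYC_Twist1_HCC libraries (928 to 2982) above all 5 MYC_HCC libraries (398 to 649). Eif1ax (-0.9, adjusted p = 0.0394), Eif4g3 (-0.7, adjusted p = 0.0408), Eif3i (-0.63, adjusted p = 0.0267) and Eif2s1 (-0.58, adjusted p = 0.0486) were lower. Eif4g3 was 21.8, 31.8, 20.4, 31.5 and 33.1 in MYC_HCC and 16.7, 19.3, 12.7, 18.3 and 15.3 in MYC_Twist1_HCC, without overlap. Eif3i was 219, 219, 206, 158 and 223 in MYC_HCC and 132, 117, 167, 148 and 102 in MYC_Twist1_HCC, with MYC_HCC 4 below the highest MYC_Twist1_HCC library. None of these 4 calls held in all 19 fits that left out 1 library. That of Eif1ax was lost without MYC_HCC 1, 2, 3 or 5 or MYC_Twist1_HCC 1, 2 or 5 (adjusted p up to 0.106), and that of Eif3i without MYC_HCC 1, 2 or 5 or MYC_Twist1_HCC 1, 2 or 5 (up to 0.078). The call of Eif4g3 was lost without MYC_HCC 2, 4 or 5, MYC_Twist1_HCC 1, 2, 3 or 5 or MYC_Twist1_OFF 3 (up to 0.0989). That of Eif2s1 held only without MYC_HCC 4, MYC_OFF 1, 2 or 3 or MYC_Recur 3 (adjusted p up to 0.134 in the other 14 fits). Of the 10 hepatocyte markers, 2 were lower in this comparison.

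In MYC_Recur against MYC_HCC, which come from different deposits, the median difference was -0.03 for the factors and 0.08 for all tested genes. Here 1 factor was higher and 3 were lower, against 6.9% and 3.93% of all tested genes, and over the 4 scalings 2 were higher and 3 lower with the upper quartile, 2 and 4 with the median of ratios and with the trimmed mean of M values, and 0 and 5 with the total sum. Of all tested genes, 745 were higher and 636 lower with the upper quartile and 702 and 696 with the median of ratios. The counts were 740 and 679 with the trimmed mean of M values and 654 and 588 with the total sum. Eif5b, the GTPase that joins the ribosomal subunits, was 26.4, 17.7 and 7.07 in MYC_Recur and 44.3, 26.2, 41.6, 47.3 and 79.6 in MYC_HCC. The MYC_Recur libraries overlapped with MYC_HCC only at MYC_HCC 2. The difference of -1.52 ± 0.37 (SE, adjusted p = 0.0122) was lost without MYC_Recur 3 (-1.02, adjusted p = 0.0986). Eif4b was 144, 131 and 106 in MYC_Recur and 253, 256, 201, 198 and 251 in MYC_HCC, without overlap, a difference of -0.86 ± 0.18 (SE, adjusted p = 0.00509) that passed in all 19 fits without 1 library. Eif4g1 was lower, at -0.96 (adjusted p = 0.0497), a call that held only without MYC_HCC 2, MYC_Twist1_HCC 2, MYC_OFF 1, 2 or 3 or MYC_Recur 1 (adjusted p up to 0.251 in the other 13 fits). Eif2ak4 was higher by 0.71 (adjusted p = 0.0399), lost without MYC_HCC 1, 3 or 4, MYC_Twist1_HCC 1 or 4 or any 1 MYC_Recur library (up to 0.12).

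In MYC_Twist1_OFF against MYC_OFF, limma called 0 of the 60 factors, where 0.00755% of all tested genes (1 gene) were called, and 1 factor had an unadjusted p under 0.05. The median difference was -0.04 for the factors and 0.06 for all tested genes. Some intervals were wide: the 95% confidence interval was -0.15 to 2.33 for Eif1b, -1.47 to 0.16 for Eif4a1, -0.33 to 1.16 for Eef1b2 and -1.15 to 0.17 for Eif3e. The test of whether the OFF difference depends on the Twist1 label, which subtracts the MYC difference from the MYC_Twist1 difference, also called 0 factors (0.0981% of all tested genes), with 2 at an unadjusted p under 0.05. The interaction for Eif1ax was 1.08 ± 0.41 (SE, adjusted p = 0.567), for Eif5a -0.87 ± 0.44 (SE, adjusted p = 0.654), for Eif4g1 -0.82 ± 0.43 (SE, adjusted p = 0.659) and for Eef1b2 -0.93 ± 0.45 (SE, adjusted p = 0.644). Factors called in only 1 of the OFF comparisons, such as Eif5a and Eif4g1, are therefore not shown to differ between them.

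Partners of the factors outside the set were read from lists of the pathway, and none of the called differences in these lists turned direction under a scaling. The lists are read against all tested genes, of which 39.4% were lower in MYC_OFF than in MYC_HCC, 33.5% lower in MYC_Twist1_OFF than in MYC_Twist1_HCC and 37.5% higher in MYC_Recur than in MYC_OFF. Of the 8 termination and recycling factors, all 8 were higher in MYC_Recur than in MYC_OFF, 6 were lower in MYC_OFF than in MYC_HCC and 5 were lower in MYC_Twist1_OFF than in MYC_Twist1_HCC (2, 4 and 3 of them under all 4 scalings, Etf1 and Gspt1 in each). Etf1 (eRF1, which reads stop codons) was 104, 105, 108, 94.2 and 98.0 in MYC_HCC, 64.1, 46.4 and 68.7 in MYC_Recur and 19.3, 15.6 and 17.2 in MYC_OFF, with differences of -2.49 (adjusted p = 7.74e-08) in MYC_OFF, -2.16 (adjusted p = 8.29e-07) in MYC_Twist1_OFF and 1.71 (adjusted p = 1.07e-05) in MYC_Recur against MYC_OFF. Gspt1 (eRF3, its GTPase partner) differed by -1.85 (adjusted p = 2.77e-06), -1.54 (adjusted p = 4.27e-05) and 1.66 (adjusted p = 4.37e-05) in the same order. Of the 7 tested enzymes of hypusine synthesis on eIF5A and diphthamide synthesis on eEF2, 5 were lower and 1 higher in MYC_OFF, 6 lower and 1 higher in MYC_Twist1_OFF, and 6 higher in MYC_Recur. Under all 4 scalings 4 of the 6, 3 of the 7 and 4 of the 6 calls were kept. Dph2 differed by -1.76 (adjusted p = 6.29e-05), -2.26 (adjusted p = 1.24e-05) and 2.2 (adjusted p = 3.24e-05). Dph1, its partner in the first step of diphthamide synthesis, was the enzyme that went the other way in the OFF groups (1.68, adjusted p = 0.00531 and 1.38, adjusted p = 0.0227).

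Of 11 cap and poly(A) partners, 5 were lower and 2 higher in MYC_OFF, 4 lower and 1 higher in MYC_Twist1_OFF, and 4 higher in MYC_Recur, all near the shares of all tested genes. Under all 4 scalings 6 of the 7, all 5 and 2 of the 4 calls were kept. Pabpc1, the poly(A)-binding protein that circularises mRNA through eIF4G, was 818, 1018, 819, 570.2 and 830.5 in MYC_HCC, 519.5, 588, 746, 732 and 315 in MYC_Twist1_HCC and 843, 957 and 812 in MYC_Recur. In MYC_OFF it was 119, 135 and 74.7 and in MYC_Twist1_OFF 47.0, 46.8 and 90.3. No OFF library reached the others, and the differences were -2.89 ± 0.3 (SE, adjusted p = 5.04e-07), -3.23 ± 0.3 (SE, adjusted p = 8.29e-07) and, in MYC_Recur against MYC_OFF, 3.02 ± 0.34 (SE, adjusted p = 2.65e-06). Ddx3x, a helicase that aids scanning, was lower in both OFF groups (-2.99, adjusted p = 1.38e-07 and -1.96, adjusted p = 1.82e-05) and Ncbp2, of the nuclear cap-binding complex, was higher in both (2.96, adjusted p = 2.51e-05 and 2.28, adjusted p = 0.000552). Of 10 genes of mTORC1 signalling, which controls the 4E-binding proteins, 5 were lower in MYC_OFF, 4 lower in MYC_Twist1_OFF and 5 higher in MYC_Recur, with none called the other way. These shares are also near those of all tested genes, and under all 4 scalings only 3, 0 and 1 of the calls were kept. Of 9 tested genes of the stress response downstream of eIF2 phosphorylation, 4 were lower in MYC_OFF, 1 was lower in MYC_Twist1_OFF and 2 were higher in MYC_Recur, near the share of all tested genes in the first and below it in the others. Under all 4 scalings 2, 1 and 1 of these calls were kept. Asns, an asparagine synthetase, was lower in both OFF groups (-2.48, adjusted p = 3.07e-06 and -2.07, adjusted p = 4.40e-05), while Atf4, the transcription factor of that response, was not called in any of the 3.

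Mitochondria use factors of their own. Of 9 such factors, 7 were lower in MYC_OFF than in MYC_HCC, 4 were lower in MYC_Twist1_OFF than in MYC_Twist1_HCC and 5 were higher in MYC_Recur than in MYC_OFF, with none called the other way, and 5, 3 and 3 of these calls were kept under all 4 scalings. Tsfm, the exchange factor of mitochondrial EF-Tu, was 38.1, 47.4, 33.3, 37.9 and 41.9 in MYC_HCC, 32.0, 30.5, 29.6, 37.0 and 16.1 in MYC_Twist1_HCC and 51.9, 46.3 and 40.9 in MYC_Recur. In MYC_OFF it was 4.54, 0.92 and 0.85 and in MYC_Twist1_OFF 1.18, 7.51 and 1.07. It was lower, at -3.91 ± 0.41 (SE, adjusted p = 6.15e-07) and -3.11 ± 0.41 (SE, adjusted p = 1.61e-05) in the OFF groups and higher by 4.13 ± 0.46 (SE, adjusted p = 2.86e-06) in MYC_Recur than in MYC_OFF. Tufm, which is mitochondrial EF-Tu itself, differed by -2.88 (adjusted p = 2.61e-07), -2.46 (adjusted p = 3.39e-06) and 2.53 (adjusted p = 5.45e-06) in the same order, and was lower in MYC_Twist1_HCC than in MYC_HCC, at -1.12 (adjusted p = 0.0105).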

How the data were processed

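The series deposited 1 table of 19 RNA-seq libraries of mouse liver tumour tissue. Its values are the authors' normalized signal per gene, deposited without a stated unit or pseudocount. Per the submitters' processing notes, the tools were Trimmomatic, STAR, Picard, featureCounts and DESeq2, with the mm10 build; their versions and settings are not stated there. Total RNA was extracted with an RNeasy kit, per the labels' protocols. The table lists symbols in capitals, here written in mouse style, and 25 of its 19511 entries carry a bare number as a symbol and were dropped.

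Groups were read from the sample titles. Genes with a value of at least 1 in at least 3 libraries (13253 of 19486) were tested on log2(value + 1) with limma 3.58.1 in R 4.3.3, in 1 fit of 5 group means with 14 residual degrees of freedom and a mean-variance trend, two-sided, and p-values were adjusted by Benjamini-Hochberg over all tested genes. This scale understates differences of low genes. Depth is unknown, so no counting interval is given. The fit was tested on simulated data.

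The genes and lists were chosen with earlier results of these data known. Genes named with full values were those with the largest called differences in each direction of each comparison, and a fixed set of core factors. Transcript words of 50 bases shared between genes were counted in the GENCODE transcripts, since reads from such stretches may be split or lost in counting. Promoter windows came from RefSeq. Alternatives were 4 rescalings, another pseudocount, no filter, only the groups compared, a replicate block, leaving out MYC_HCC 4 and 5, and leaving out each library. The summed level of 1 marker list is not reported here.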

Additional observations from a re-analysis of the deposited data

Results flagged for a closer look

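In 10 of 120 groups of 5 libraries tested for 1 library far from the others (the 60 factors in MYC_HCC and in MYC_Twist1_HCC), the gap to the nearest library exceeded 0.71 of the group's range. Chance alone marks about 1 in 20 such groups. In MYC_Twist1_HCC, replicate 5 stood highest for 4 genes: Eef1b2 at 2982.12 (the others 928.3 to 1388.96), Eif4g2 at 274.13 (198.1 to 210.95), Eif1a at 114.65 (84.63 to 92.16) and Eif5b at 70.18 (27.56 to 37.25). In the same group Eif2s3x was 67.83 in replicate 3 (117.78 to 137.19 in the others), and Eif2b4 was 61.04 in replicate 2 (21.47 to 31.52). In MYC_HCC, replicate 4 was lowest for Eif3i at 158.28 (205.78 to 223.29) and Eif4a3 at 90.4 (131.59 to 143.02), and highest for Eif4e3 at 2.19 (0.58 to 0.95). Eif3f was 177.99 in MYC_HCC replicate 3 (131.71 to 142.3).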

How the results depend on the processing

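The total number of factors called in a comparison, both directions together, moved by less than 1.5 times under the 4 rescalings, the other pseudocount and no filter, except in MYC_Recur against MYC_HCC, where 4 became 6 with the median of ratios and with the trimmed mean of M values. By direction the counts moved further: with the median of ratios, 36 higher and 5 lower in MYC_Recur against MYC_OFF became 20 and 9, 38 lower in MYC_OFF against MYC_HCC became 24, and 35 lower in MYC_Twist1_OFF against MYC_Twist1_HCC became 22. The number called in MYC_Twist1_HCC against MYC_HCC, 5, was 3 without MYC_HCC 4 and 5, and 1 to 6 when 1 library was left out. In MYC_Recur against MYC_HCC, 4 factors became 1 with only the groups compared, 1 without MYC_HCC 4 and 5, and 2 with the replicate block, and 2 to 6 when 1 library was left out. Leaving out 1 library gave 36 to 42 factors in MYC_OFF against MYC_HCC, 36 to 43 in MYC_Recur against MYC_OFF, 31 to 41 in MYC_Twist1_OFF against MYC_Twist1_HCC, and 0 in the comparison of the OFF groups and in the interaction. With the replicate block, 43 factors were called in MYC_Recur against MYC_OFF, 40 in MYC_OFF against MYC_HCC, 39 in MYC_Twist1_OFF against MYC_Twist1_HCC and 4 in MYC_Twist1_HCC against MYC_HCC. Libraries that share a number correlated in their deviations from the group means at -0.171 to 0.384 and in no comparison all above 0.1, so the numbers were not taken to pair them. Over all tested genes, the median of ratios turned 1585 lower calls in MYC_Recur against MYC_OFF into 2986 and 4964 higher into 2750; in MYC_OFF against MYC_HCC it turned 2511 higher and 5221 lower into 3828 and 3540, and in MYC_Twist1_OFF against MYC_Twist1_HCC 1732 and 4446 into 2858 and 2767. The cause was not tested. Leaving out libraries lowers the number of residual degrees of freedom. Of the calls with the deposited values, 20 of 36 higher in MYC_Recur against MYC_OFF, 24 of 38 lower in MYC_OFF and 22 of 35 lower in MYC_Twist1_OFF held under all 4 rescalings, and 28 of 36, 31 of 38 and 28 of 35 in all 19 fits without 1 library. No named factor with a called difference turned direction under an alternative other than a rescaling. The unknown unit and depth limit what can be said of genes with values near 1, such as Eif4e3 and Eif5a2.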
